A study of Canis lupus familiaris with 4 samples.

Results

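The genes described here encode the T cell receptor complex and the proteins that act directly on it: the CD3 chains CD3D, CD3E, CD3G and CD247, the coreceptors CD8A, CD8B and CD4, the kinases LCK and ZAP70, and the adaptor LAT. They were chosen as a list of 10 symbols. Of these, 9 were found among the 11691 genes present in both deposited tables, each on a row with a single symbol, and CD247 was not analysed here. A T cell recognises antigen through the alpha and beta chains of its receptor, which have no signalling tail of their own and depend on the CD3 chains. The coreceptors CD8 and CD4 bind the MHC molecule beside the peptide and bring LCK to the receptor. LCK phosphorylates the CD3 tails, ZAP70 docks on them, and ZAP70 then phosphorylates LAT, the scaffold on which calcium and Ras signalling are assembled.

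Messenger RNA libraries were made from canine CD8+ T cells that had been given either PBS, the vehicle, or exosomes, which are small vesicles that cells release. The exosomes came from CLBL-1, a cell line of canine diffuse large B cell lymphoma. Blood mononuclear cells of mixed-breed healthy dogs, 1 female and 1 male, were grown for 14 to 20 days with human IL-2 at 2500 IU/mL and 2-mercaptoethanol at 50 µM before CD8+ cells were purified, and both groups share this expansion. The control (PBS) and exosome groups hold 2 libraries each, and the 2 libraries of a deposited table are taken to be from 1 dog. The labels list exosome doses of 50, 100 and 200 µg/mL, the design text gives 50 µg/mL, and 48 h of exposure is labelled throughout. The deposited columns, however, are named 24 h in the table called pair 1 here and 48 h in pair 2. The authors' log also lists comparisons of the 48 h with the 24 h columns within each arm, which are not analysed here. Dog, sex and any difference in exposure time therefore cannot be told apart between the pairs.

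Levels are read counts that the authors divided by 1 factor per library (scaled counts). Reads recovered over the shared genes numbered 9417298 to 12325953 per library. The deposited tables list no gene at 0, so any marker found there is above 0 by construction. Of the listed markers, 3 of 7 for B cells, 2 of 8 for monocytes and 2 of 4 for plasma cells were in both tables. Of those for natural killer, innate-like T and helper T cells, 6 of 8, 1 of 6 and 5 of 7 were. The 5 markers of CD8 T cells, CD3D, CD3E, CD3G, CD8A and CD8B, stood at 65.4 or more in every library. Of 14 cell cycle genes, 13 were lower in the exosome library of each pair, against 32.5% of all genes. By limma 2 of the 14 were called, against 0.744% of all genes, while edgeR and voom called no gene at all. The summed level of the 14 was 1996 with PBS and 1116 with exosomes in pair 1, against 4755 and 2358 in pair 2. Its part in the results on the receptor genes was not tested. The B cell marker MS4A1 stood between 3.62 and 10.7 in all libraries. In such bulk samples, fewer cells of a type and less RNA per cell cannot be told apart.

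The CD3 chains were expressed in every library, and each had a lower value with exosomes in both pairs, by amounts that did not pass the test and that for CD3D in pair 2 changed sign with TMM scaling. CD3E, which pairs with CD3D or CD3G in the complex, stood at 675 with PBS and 530.2 with exosomes in pair 1, against 873 and 750 in pair 2 (this order is kept throughout). The order was the same in both pairs, but the exosome library of pair 2 lay above the control of pair 1, so the groups overlap. Its log2 fold was -0.28 ± 0.23 (SE, n = 2 pairs, limma adjusted p = 0.626), with a 95% interval of -0.78 to 0.21.

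CD3G, the gamma chain, stood at 255 and 206 in pair 1, against 284 and 258 in pair 2. The values of both groups overlap, and the log2 fold was -0.22 ± 0.23 (SE, n = 2 pairs, limma adjusted p = 0.721). CD3D, the delta chain, stood at 91.7 and 65.4 in pair 1, against 221 and 218 in pair 2. Its lower value in the exosome library was thus almost wholly a feature of pair 1. The log2 fold was -0.25 ± 0.24 (SE, n = 2 pairs, limma adjusted p = 0.696). The SE of limma is moderated: it draws mainly on the variances of all genes, with 1 residual and 11.4 prior degrees of freedom.

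Of the coreceptors, CD8A and CD8B form the CD8 dimer of conventional cytotoxic T cells, while CD8A can also pair with itself. CD8A stood at 385 and 286 in pair 1, against 488 and 453 in pair 2. It was lower with exosomes in both pairs, with a log2 fold of -0.27 ± 0.23 (SE, n = 2 pairs, limma adjusted p = 0.665). CD8B stood at 73.4 and 72.7 in pair 1, against 479 and 528 in pair 2. Within a pair its libraries were close to each other, and both libraries of pair 2 lay far above those of pair 1. The log2 fold for exosomes was 0.06 ± 0.23 (SE, n = 2 pairs, limma adjusted p = 0.937).

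CD4, the coreceptor of helper T cells, had few reads in every library. It stood at 3.22 and 6.41 in pair 1, from 41 and 65 reads, against 11.6 and 11.0 in pair 2, from 109 and 140 reads. Beside the reads of CD8A it made up 0.828% of the reads of both genes in the control library of pair 1 and 2.19% to 2.37% in the other libraries. The 95% exact binomial (Clopper-Pearson) interval of the first share was 0.595% to 1.12%, and that of the exosome library of pair 1 was 1.69% to 2.78%. Intervals of this kind cover counting error only. The log2 fold of CD4 was 0.37 ± 0.26 (SE, n = 2 pairs, limma adjusted p = 0.552), and its direction differed between the pairs.

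**Figure D1:**
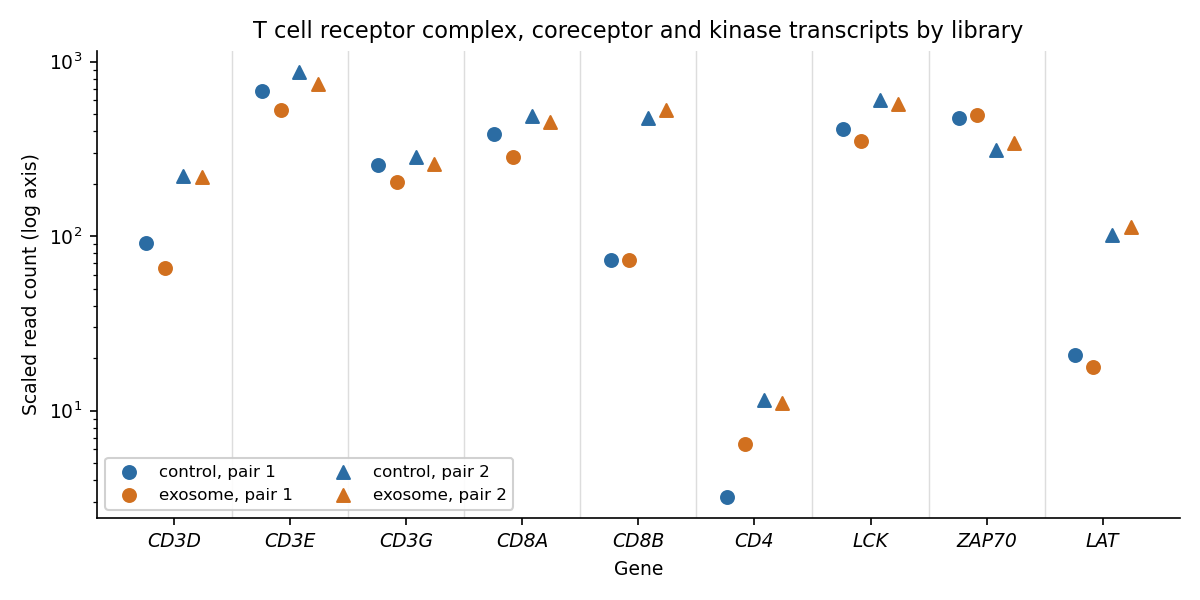
Scaled read count (log axis) of each of the 9 genes in each of the 4 libraries, with circles for pair 1, triangles for pair 2, blue for control and orange for exosome. The values of every gene separate by pair, and CD8B, LAT and CD3D were over 2-fold higher in pair 2 in both arms. CD8B stood at 72.7 to 73.4 in pair 1 and 479 to 528 in pair 2. For CD8B, LAT and CD3D, control and exosome libraries of a pair lie closer together than the pairs do.

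Among the signalling proteins, LCK and ZAP70 differed in opposite directions, both by small amounts. LCK, the kinase that starts the cascade, stood at 409 and 352 in pair 1, against 606 and 571 in pair 2. It was lower with exosomes in both pairs, with a log2 fold of -0.15 ± 0.23 (SE, n = 2 pairs, limma adjusted p = 0.83). ZAP70, the kinase that docks on the CD3 tails, stood at 473 and 498 in pair 1, against 310.0 and 341 in pair 2. It was the only one of the 9 genes with a higher value in the exosome library of both pairs, and also the only one with higher values in pair 1 than in pair 2. Its log2 fold was 0.11 ± 0.23 (SE, n = 2 pairs, limma adjusted p = 0.884). LAT stood at 20.8 and 17.8 in pair 1, against 101 and 113 in pair 2. The exosome library was the lower one in pair 1 and the higher one in pair 2, and the log2 fold was -0.03 ± 0.23 (SE, n = 2 pairs, limma adjusted p = 0.98).

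Across the 9 genes, none was called for the treatment at an adjusted p of 0.05 by limma, where 0.744% of all genes were called (0.496% lower and 0.248% higher with exosomes). None had an unadjusted p under 0.05 either, against 15.9% of all genes. With edgeR, DESeq2 and voom, too, 0 of the 9 were called, with 0 at an unadjusted p under 0.05. However, edgeR and voom called 0 of all 11691 genes, so their 0 among the 9 carries no information. Over all genes DESeq2 called 62 higher and 107 lower. The 95% limma intervals ran from -0.78 to 0.94 on the log2 scale. On this scale of log2(value + 1) a change of 2-fold lay outside the interval of each gene. A change of 1.5-fold lay inside the interval of 7 of them in at least 1 direction. These intervals draw mainly on variances pooled over all genes, with 1 residual and 11.4 prior degrees of freedom. With 2 pairs they therefore do not exclude a 2-fold change of any single gene. The scale also understates the folds of low genes such as CD4, whose ratio in pair 1 was 1.99-fold. The values were lower with exosomes in both pairs for 5 genes, higher in both for 1 and opposite for 3, while 32.5% of all genes were lower in both pairs, 27.8% higher in both and 39.7% opposite. With TMM scaling the log2 ratio of CD3D in pair 2 turned from -0.017 to 0.014. The median log2 ratio of exosome to control was -0.23 in pair 1 and -0.07 in pair 2, against -0.02 and -0.03 for all genes. In both pairs the medians of the 9 genes thus lay slightly below those of all genes.

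A single pair has 1 library per arm and so allows no test of the treatment, but the reads recovered set a counting error. In pair 1 the 95% counting interval of the ratio lay below no change for 5 genes, CD3D, CD3E, CD3G, CD8A and LCK, and above it for CD4 and ZAP70. Over all genes these shares were 30.4% below and 29.1% above, and over the 4382 genes with a mean value of at least 50, which have more reads, 33.1% and 44.6%. The difference of CD3D there was -28.7%, with an interval of -35.3% to -21.5%. That of CD8A was -25.7%, with an interval of -29.1% to -22.2%. In pair 2 the interval lay below no change for CD3E, CD3G, CD8A and LCK, and above it for CD8B, ZAP70 and LAT, with 28.3% of all genes below and 22.3% above, and 41.2% and 27.1% of those with a mean of at least 50. There the differences were -14.2% for CD3E, -6.99% for CD8A, 10.2% for CD8B and 12.2% for LAT. Those of CD3D, CD3E, CD3G, CD8A and LCK lay farther below 0 in pair 1, and whether the response differs between the pairs could not be tested with 1 library per arm.

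The authors' deposited tables, which also set 1 library against 1, gave an adjusted p of 0.00014 to CD3E and of 0.000812 to CD8A in pair 1. The adjusted p-values of the other 7 genes in that table were 0.0964 or higher, and in the authors' deposited table of pair 2 those of all 9 were 0.1 or higher. None of the 9 passed the authors' own limits of a 1.5-fold change with p under 0.05 in either table. The shares of all genes that pass these limits, or that have such adjusted p-values, are not given here. The counts are therefore not read as a trait of the set. Such p-values compare libraries, not conditions.

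**Figure D2:**
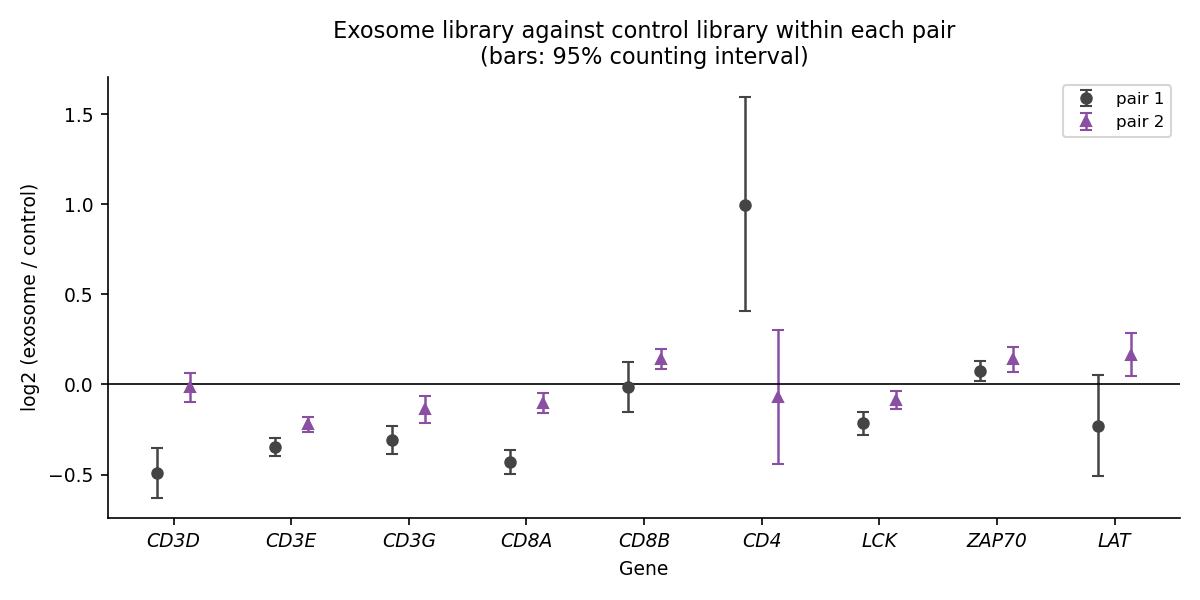
log2 ratio of the exosome to the control library for each of the 9 genes in pair 1 (circles) and pair 2 (triangles), with bars for the 95% counting interval. CD3E, CD3G, CD8A and LCK lie below 0 in both pairs, ZAP70 lies above 0 in both, and CD4 in pair 1, at 0.99, has the widest interval.

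Ratios of reads within a library do not depend on its scaling, and they were examined for 7 pairs of genes among the 9 after the values had been seen. Gene length was not corrected for, so only their difference between libraries is read. CD8B made up 16% of the reads of CD8A and CD8B together with PBS and 20.3% with exosomes in pair 1, against 49.5% and 53.8% in pair 2. The ratio of CD8B to CD8A was thus 1.33 times as high in the exosome library in pair 1 and 1.19 times in pair 2. The counting intervals of both libraries do not overlap in either pair, at 15.1% to 17.0% and 19.0% to 21.6% in pair 1 and 48.5% to 50.6% and 52.9% to 54.7% in pair 2. Intervals of other ratios were apart as well, as given below. How often this holds over all gene pairs is not given here, so it is not read as a trait of CD8B.

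ZAP70 made up 53.6% of the reads of ZAP70 and LCK with PBS and 58.6% with exosomes in pair 1, against 33.9% and 37.4% in pair 2. The ratio of ZAP70 to LCK was 1.22 and 1.17 times as high with exosomes in pair 1 and pair 2, and its counting intervals do not overlap in either pair. The balance among CD3 chains did not move one way: the ratio of CD3D to CD3E with exosomes was 0.908 times that of the control in pair 1 and 1.15 times in pair 2. CD3G to CD3E differed by less, at 1.03 and 1.06 times. CD8A to CD3E stood at 0.946 and 1.08 times the control ratio. LAT to LCK stood at 0.991 and 1.19 times. The counting intervals of CD3D to CD3E, CD8A to CD3E and LAT to LCK overlap in pair 1 but not in pair 2. Those of CD4 to CD8A overlap in pair 2 only, and those of CD3G to CD3E in both pairs. With 2 pairs an exact two-sided permutation test of such a ratio cannot give a p below 0.5, and the ratios were put to no other test, so they are given as descriptions.

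**Figure D3:**
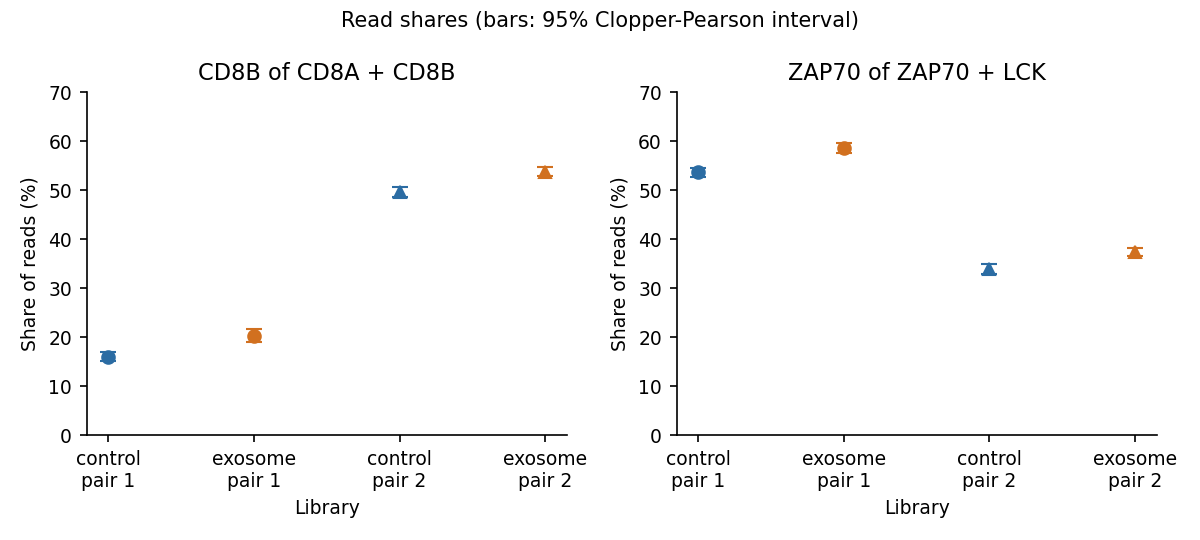
Share of reads (%) of CD8B among CD8A plus CD8B (left) and of ZAP70 among ZAP70 plus LCK (right) in each library, with 95% Clopper-Pearson intervals. Both shares are higher in the exosome library of each pair, and the difference between pairs, from 16% to 49.5% for CD8B in the controls, is larger than that between arms. The other ratios examined are not shown, and all were chosen after the values had been seen.

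The largest differences in the set were between the pairs. Each pair is taken to be 1 dog, with 1 library per arm, so the difference between pairs is described and was not tested. The authors' factors lay within 1.07% of TMM factors computed over all 4 libraries together. Of the 9 genes, 8 were higher in pair 2 than in pair 1 in both arms and 1 was lower, against 36.6% and 36.2% of all genes. CD8B, LAT and CD3D, 3 of the 9, were over 2-fold higher in both arms. Over all genes, 6.71% were over 2-fold higher and 6.82% over 2-fold lower in pair 2 in both arms. CD8B was 6.52-fold higher in pair 2 among controls and 7.26-fold higher among exosome libraries. LAT was 4.85-fold and 6.38-fold higher, and CD3D 2.41-fold and 3.34-fold. CD4 was 3.6-fold and 1.72-fold higher. LCK, CD8A, CD3E and CD3G were 1.12-fold to 1.62-fold higher in pair 2, and ZAP70 was 1.53-fold and 1.46-fold higher in pair 1.

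Other genes near the receptor differed between the pairs as well. Of 60 further genes of proximal signalling, 11 were over 2-fold higher in pair 2 in both arms and 1, RASA1, was over 2-fold lower. The 11 are named after their values were seen. CD6, a surface receptor that tunes receptor signalling, stood at 15.0 and 14.3 in pair 1, against 438 and 533 in pair 2. CD5, a related inhibitory receptor, stood at 13.3 and 23.6 and then at 347 and 411. THEMIS, an adaptor needed for thymocyte selection in mice, stood at 5.49 and 7.3 and then at 208 and 139. These 3 genes were 17.4-fold to 37.8-fold higher in pair 2. TRAT1, a transmembrane adaptor of the receptor complex, was 6.38-fold and 4.03-fold higher. The others were CD2, an adhesion receptor, the adaptors GRAP2 and PAG1, the kinase SYK, the Ras activator RASGRP1, and the inhibitors SLA and SPRY1, at 2.19-fold to 6.65-fold.

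A row that the authors' tables describe as the constant region of the T cell receptor alpha chain (LOC607937) was found by its description. It stood at 452 and 277 in pair 1, against 1076 and 1104 in pair 2. Both libraries of pair 2 lay above those of pair 1, by 2.38-fold and 3.98-fold. Its difference with exosomes was -38.7% in pair 1, with a counting interval of -41.4% to -35.8%, and 2.59% in pair 2, with an interval that spans no change. The log2 fold was -0.33 ± 0.25 (SE, n = 2 pairs, limma adjusted p = 0.591). Its reads per read of CD3E were 0.670 and 0.523 in pair 1, against 1.23 and 1.47 in pair 2, so the ratio lay on opposite sides of the control in the pairs.

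Markers of natural killer cells differed between the pairs in the other direction. Of 8 listed, 6 were in both tables, 1 of them on a row shared with another gene. The summed level of the other 5 was 602 and 953 in pair 1, against 269 and 244 in pair 2. KLRB1 stood at 173 and 85.5 in pair 1, against 19.6 and 9.99 in pair 2, FCER1G at 135 and 181 and then at 21.3 and 15.4, and KLRD1 at 213 and 666 and then at 85.0 and 124. NCR1 and NCR3 were instead higher in pair 2, at 42.6 and 32.8 and at 100.0 and 61.7, with 33.2 and 10.6 and 46.9 and 9.96 in pair 1. The part of these markers in the difference in CD8B, LAT, CD3D or the receptor alpha row was not tested.

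**Figure D4:**
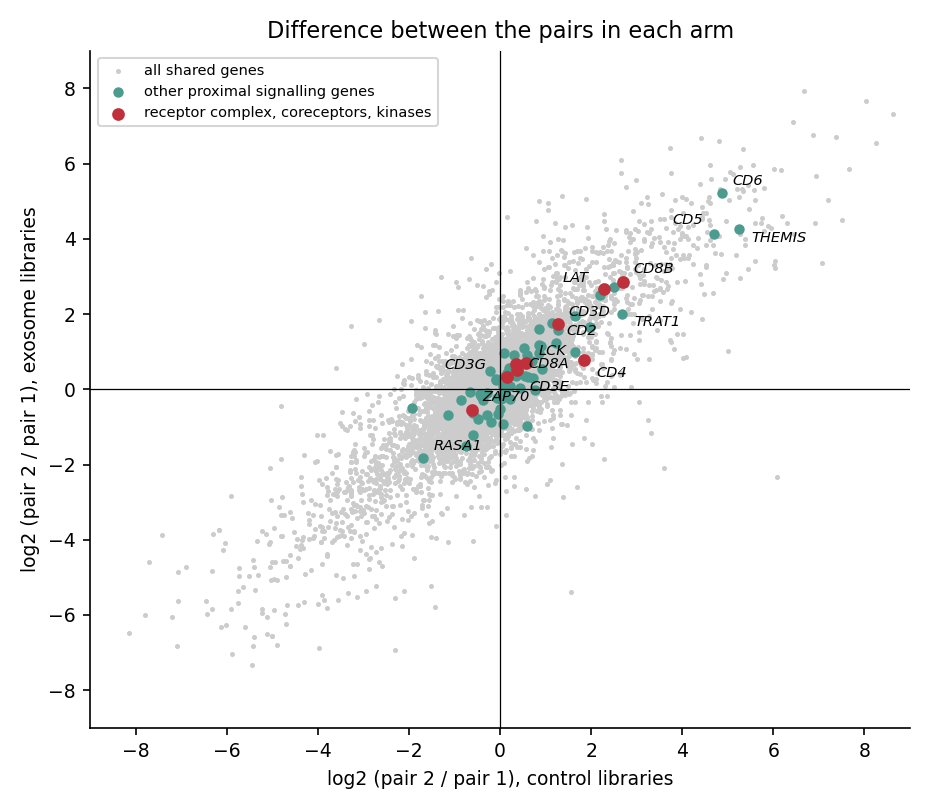
log2 ratio of pair 2 to pair 1 in the control libraries (horizontal) and in the exosome libraries (vertical) for all shared genes (grey), the 60 other signalling genes (green) and the 9 genes of the set (red). CD8B and LAT lie with CD5, CD6 and THEMIS on the side of pair 2, and ZAP70 on that of pair 1.

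The remaining genes of proximal signalling show how the treatment compares further down the cascade. Of 67 listed genes, 60 were in both tables. limma called 0 of them, with 7 at an unadjusted p under 0.05, against 0.744% called and 15.9% under 0.05 among all genes. edgeR called 0 with 10 under 0.05, DESeq2 0 with 8, and voom 0 with 10. Since edgeR and voom called 0 of all genes, their 0 here carries no information. Values were lower with exosomes in both pairs for 20 of the 60, higher in both for 19 and opposite for 21. These shares lie near those of all genes, and the median log2 fold of the 60 was -0.04 against -0.01 for all genes.

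The roles differed in their counts. Of 13 adaptors, 9 were lower in both pairs and 2 higher, with a median log2 fold of -0.26. GRAP2, which links LAT to the scaffold LCP2, stood at 66.5 and 38.6 in pair 1, against 209 and 149 in pair 2, a log2 fold of -0.63 ± 0.23 (SE, limma adjusted p = 0.203). LCP2 itself, also known as SLP-76, was singled out after its values were seen. It stood at 737 and 581 in pair 1, against 774 and 614 in pair 2, so that its log2 ratio was -0.34 and -0.33. SH2D2A, an adaptor that binds LCK, stood at 43.3 and 81.0 and then at 28.9 and 34.7, higher with exosomes in both pairs (limma adjusted p = 0.273).

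Of 17 effectors, 6 were higher in both pairs and 2 lower, with a median log2 fold of 0.04. NFATC1, a transcription factor activated by calcium, stood at 42.5 and 102 in pair 1, against 72.7 and 101 in pair 2. The log2 fold of NFATC1 was 0.85 ± 0.25 (SE, n = 2 pairs, limma adjusted p = 0.114), and it was called when the pseudocount was 5 or low genes were left out. PLCG1, the phospholipase that LAT recruits, was named after its values were seen, and stood at 350 and 682 and then at 409 and 569 (limma adjusted p = 0.155). PPP3CA, a catalytic subunit of the phosphatase calcineurin, stood at 178 and 108 and then at 134 and 94.8 (limma adjusted p = 0.222). NFATC1 and PLCG1 were thus higher in the exosome library of each pair, and PPP3CA lower.

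Of 16 negative regulators, 8 were higher in both pairs and 3 lower, with a median log2 fold of 0.10. SPRY1, an inhibitor of Ras signalling, was low throughout, at 0.471 and 1.18 in pair 1, against 2.65 and 7.86 in pair 2 (limma adjusted p = 0.085). PTPN6, the phosphatase SHP-1, stood at 140.2 and 76.7 in pair 1 and at 149 in both libraries of pair 2 (limma adjusted p = 0.468). UBASH3B, a phosphatase also called STS-1 that acts on ZAP70, was named after its values were seen. It stood at 44.4 and 139 in pair 1, against 66.4 and 70.1 in pair 2 (limma adjusted p = 0.211), so that nearly all of its difference came from pair 1. PLCG1 and UBASH3B were called with a pseudocount of 5 and also when low genes were left out, and GRAP2 in the latter case.

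The 8 kinases were lower in both pairs in 3 cases and higher in 2. TEC stood at 33.0 and 15.9 in pair 1, against 8.7 and 11.3 in pair 2, and TXK, a related kinase, at 13.2 and 20.6 and then at 41.0 in both libraries. Among 5 surface proteins CD5 had the highest mean log2 ratio, with a log2 fold of 0.51 ± 0.24 (SE, limma adjusted p = 0.323). The row with the lowest was shared by PPP1CA, CORO1B and PTPRCAP, whose reads cannot be told apart. TRAT1, the 1 measured member of the receptor-associated group, stood at 41.8 and 39.1 in pair 1, against 267 and 157 in pair 2 (limma adjusted p = 0.442). SPRY1 was the only one of the 60 to reach a 1.5-fold difference in the same direction in both pairs, at 2.51-fold and 2.96-fold higher from 6 to 100 reads per library, against 2.52% of all genes for higher and 5.02% for lower values. With a limit of 50 reads in at least 1 library of each pair, none of the 59 genes left did so, against 1.78% of the 9512 such genes for higher and 3.95% for lower values.

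**Figure D5:**
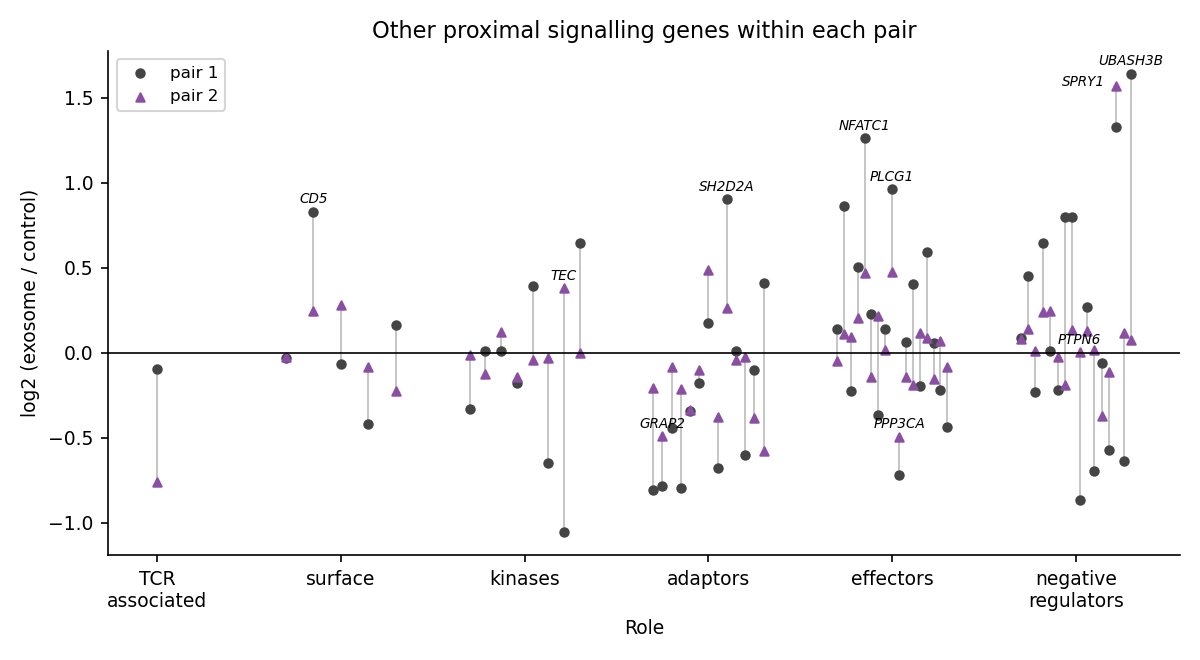
log2 ratio of exosome to control for the 60 other signalling genes, by role, in pair 1 (circles) and pair 2 (triangles), with a line joining the values of a gene. Adaptors lie mostly below 0 (9 of 13 in both pairs), and many genes lie farther from 0 in pair 1, such as UBASH3B at 1.64 against 0.08.

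Genes with a similar course over the 4 libraries were sought among 7171 genes with a single symbol and at least 100 reads in every library. The measure was the root mean square difference of log2 values, each centred on its gene's mean. Near to the mean of CD3D, CD3E and CD3G were HPF1, a partner of the ADP-ribosylating enzymes PARP, at 24.6 and 18.0 in pair 1 and then 35.5 and 34.1, and CBX6, a Polycomb protein. Their differences were 0.032 and 0.033. LCK lay at 0.075, with 31 genes nearer, and CD8A at 0.11, with 121, while ZAP70 lay at 0.68. The 3 genes nearest to CD8B were HMGA1, a chromatin protein, SPOCK2, an extracellular proteoglycan, and ITGAE, the integrin alpha E chain, at 0.14 to 0.16. ITGAE stood at 29.6 and 30.4 in pair 1, against 260 and 251 in pair 2. LAT lay at 0.19 from CD8B, with 5 genes nearer, a count that includes CD8B itself. Each such likeness rests on 4 values per gene from 2 dogs.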

How the data were processed

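The submitters' processing notes name the build CanFam3.1, HISAT2 2.1.0, featureCounts 1.6.0, Trimmomatic 0.38, MultiQC and FastQC. Their order, settings and use of strand: not given in the sources used here. The authors ran DEGseq on each table, with an exosome and a control library, per the file headers. Their log starts at 30951 genes, keeps 11838, and then drops 89 and 58 as outliers. It also lists comparisons of the 48 h with the 24 h columns, with 78 outliers each, not analysed here. The deposited gene columns are a signal, namely reads divided by a library factor. The deposited mean column is a score, the deposited log2 fold changes are exosome over control, and the deposited p-values compare libraries. Other values in the authors' log are numbers of genes.

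Dividing by the smallest value of a column gave whole reads for 100% of the values (tolerance 0.001), and edgeR on these reads called 0 genes. Columns were assigned to groups, and the columns of a table form a pair. The pair is the block, because the design text gives 2 dogs and each deposited table holds 1 library per arm; that its libraries share a dog is an assumption. Control and exosome deviations correlated at 0.818, a value equal for both pairs by construction. limma 3.58.1 (R 4.3.3) on log2(value + 1), which understates folds of low genes, gave the main result, with Benjamini-Hochberg adjustment over 11691 genes. edgeR 4.0.16, DESeq2 1.42.0 and voom on the recovered reads were alternatives. The libraries are not stated to be independent cultures beyond the dog, so p-values refer to these samples only. Those of limma, like its SE, draw mainly on variances pooled over all genes. Reads without molecular identifiers are not independent molecules. Total depth is unknown, since the sums leave out removed genes.

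The members and lists were chosen with earlier results of these data known. Besides the 9 genes, the text names the highest and lowest mean log2 ratio per role, called genes, genes 1.5-fold in both pairs with at least 50 reads, defining markers, and the 3 nearest genes, of which 1 is not reported here, as is 1 marker. Names outside this rule are marked. Scripts were tested on simulated counts. Gene names are those of the files, and no sequence is printed because none was given.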

Additional observations from a re-analysis of the deposited data

Results flagged for a closer look

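Among the 9 genes and the 60 other signalling genes, 6 had log2 ratios of exosome to control in opposite directions in the pairs, each beyond its counting interval. They are singled out for that, and with 1 library per arm in each pair the difference between pairs was not tested. Over all genes 39.7% had opposite directions, and the share that was also beyond both counting intervals is not given here. PTPN2, a phosphatase that acts on JAK kinases and LCK, stood at 0.80 in pair 1 and -0.19 in pair 2. PPP3R1, the regulatory subunit of calcineurin, stood at 0.40 and -0.19. NFATC2 stood at 0.23 and -0.14, while NFATC3, a related transcription factor, stood at -0.37 and 0.21. PTPRC, the phosphatase CD45, stood at 0.16 and -0.23, and RASGRP1 at -0.19 and 0.12. None of the 9 genes of the receptor complex and its kinases met both conditions. Without the share over all genes, that is not read as a trait of the set.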

How the results depend on the processing

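The count of called genes was 0 under all 13 alternatives for the 9 genes, of which 8 were tested without low genes, CD4 being left out. For the 60 other genes it was 0 under 11 of them, 3 with a pseudocount of 5 (NFATC1, PLCG1 and UBASH3B, limma adjusted p = 0.014, 0.0246 and 0.0395) and 4 when genes with a mean value under 20 were left out and 55 were tested (the same 3 genes and GRAP2, 0.00353 to 0.0487). Over all genes limma called 29 higher and 58 lower, 202 and 408 with a pseudocount of 5, 219 and 384 without low genes, and DESeq2 62 and 107. It called 0 with a pseudocount of 0.1, with no replicate block, with TMM or total scaling, or without any 1 library, as did edgeR and voom. With no replicate block none of the 9 genes was called (smallest adjusted p = 0.999). TMM scaling kept the within-pair values of the 9 inside their counting intervals and moved the between-pair values by under 0.1 on the log2 scale, and CD3D in pair 2 changed sign. LAT turned from -0.026 to 0.034 with voom. Leaving out 1 library breaks a pair, so these fits had no block, compared unequal dogs and assumed that the lone library varies like the others; log2 folds then ran from -1.11 to 0.61 for CD3D, -0.60 to 0.065 for CD8A, -1.36 to 1.48 for CD8B, -0.41 to 1.16 for CD4, -0.50 to 0.20 for LCK, -0.20 to 0.41 for ZAP70 and -1.33 to 1.28 for LAT. CD3E and CD3G stayed below 0, at -0.53 to -0.035 and -0.39 to -0.057. Among the other named signalling genes, NFATC1 stayed above 0, at 0.47 to 1.23. PPP3CA and the row shared by PPP1CA, CORO1B and PTPRCAP stayed below 0, at -0.80 to -0.40 and -0.37 to -0.13. The others ran from -1.75 to 0.90 for TRAT1, -1.79 to 2.82 for CD5, -0.48 to 1.09 for TXK, -1.24 to 0.57 for TEC, -1.59 to 0.33 for GRAP2, -0.028 to 1.17 for SH2D2A, -0.90 to 0.044 for PTPN6, -0.086 to 1.94 for SPRY1 and -1.33 to 0.66 for LOC607937. CD4 and SPRY1 rest on few reads and are limited by depth.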

Other observations

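Markers of other cells gave these values. MS4A1, a B cell marker on a row of its own, stood at 10.7 with PBS and 5.62 with exosomes in pair 1, against 4.46 and 3.62 in pair 2, and CD79A shares a row with RPS19. The 2 plasma cell markers summed to 15.7 and 21.4 and then to 27.2 and 26.8. Of the 2 monocyte markers in both tables, CD68 stood at 0.471 and 2.17 and then at 0.849 and 1.02. The other, ITGAM, is on a row shared with ITGAX and ITGAD. The 5 helper T cell markers, CD4 included, summed to 103 and 92.8 and then to 85.1 and 83.7. ZBTB16, the 1 measured marker of innate-like T cells, stood at 15.5 and 8.88 and then at 24.8 and 19.2. None of these was called by limma (smallest adjusted p = 0.223, for FOXP3). The natural killer list had 0 of 6 called by limma and 4 at an unadjusted p under 0.05, led by NCR3 (adjusted p = 0.0526). Over all genes 0.744% were called and 15.9% lay under 0.05. Of the 4, NCR1, NCR3 and KLRB1 were lower with exosomes and KLRD1 was higher. Of the 14 cell cycle genes, MCM5 and RRM2 fell by 1.27 and 1.38 on the log2 scale (limma adjusted p = 0.0323 for both). PCNA stood at 127 and 62.4 and then at 273 and 122 (limma adjusted p = 0.0526). The row shared by the monocyte marker ITGAM, ITGAX and ITGAD stood at 640 and 383 and then at 52.5 and 72.8. It was thus 12.2-fold higher in pair 1 among controls and 5.25-fold higher among exosome libraries. Reads of these genes cannot be told apart.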
